A study of Mus musculus with 58 samples.

Results

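Adipose stem cells (ASC) labelled as those of castrated male mice were compared as DPP4+ cells (ASC2) against DPP4- cells (ASC1) of the same fat depot. The comparison took the 16 libraries titled castration, 8 of ASC2 and 8 of ASC1, out of 58 in the experiment. The labels and the study give all as inguinal white adipose tissue (iWAT) of C57BL6/J mice, castrated at 4 weeks and terminated at 10 weeks of age, after a fast. Sex-chromosome transcripts of the ASC1 libraries, given below, went against the male label. The cells were sorted as CD45-/CD31-/CD34+ and divided by DPP4, and their RNA was sequenced in bulk by Smart-seq3. The 15 libraries of control males (8 ASC2 and 7 ASC1) and the 16 of control females (8 and 8), labelled as controls and likewise terminated at 10 weeks, are given only beside this comparison. Libraries labelled as ovariectomized females (8 ASC2 and 3 ASC1), operated at 4 weeks and terminated at 10 weeks, entered only the shared fit. The study used 8 castrated mice, but the labels do not tie each library to a mouse, so p-values measure the spread between these libraries, which may be technical. CD34 is also found on endothelial and blood progenitor cells, which the CD31 and CD45 gates are meant to remove. Expression is given as CPM, a gene's reads relative to the library's total after TMM scaling. Fold changes, standard errors (SE) and adjusted p-values are those of edgeR's quasi-likelihood test over 12464 genes, with Benjamini-Hochberg adjustment and a threshold of 0.05, and log2 differences are ASC2 minus ASC1.

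Dipeptidyl peptidase 4, encoded by Dpp4, is a surface protease that trims peptides such as incretins and chemokines. In subcutaneous fat it marks mesenchymal progenitors that lie in the fibrous sheath around the lobules, express Pi16 and Cd55 and can give rise to committed preadipocytes. DPP4- cells include those preadipocytes, which lie among the adipocytes and express lipid-handling and basement membrane genes, and removal of the testes takes away most circulating androgen.

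Total counts were 235104 to 865929 per ASC1 library and 299330 to 921014 per ASC2 library, and neither these nor the number of detected genes differed between the populations (adjusted p = 0.855 and 0.945 over 12 library measures, exact two-sided permutation test). The sex-chromosome transcripts separated the populations. Xist, the RNA that coats the inactive X chromosome, was at 51.9 to 118 CPM in the 8 libraries labelled castrated male ASC1 and at 0 to 7.99 CPM in the 8 labelled ASC2. The Y-linked genes Ddx3y, Eif2s3y, Uty and Kdm5d summed to 0 to 4.72 CPM in ASC1 and 55.9 to 100.1 CPM in ASC2. All 8 libraries labelled castrated male ASC1 thus went against the male label, and a comparison without them could not be made. Cell population and whatever separates these transcripts cannot be told apart in any result here. The names castrated ASC1 and castrated ASC2 stand for libraries labelled so. In control males, plate rows A to D had no Xist read in either population and rows E to H had 50.2 to 73.9 CPM in both. The summed Y-linked genes of the controls were 50.9 to 64.7 CPM in ASC1 and 112 to 128 CPM in ASC2 of rows A to D, against 4.36 to 15.6 CPM and 12.6 to 33.9 CPM in rows E to H. The control libraries of rows E to H thus also carried Xist against their male label, with fewer Y-linked reads, and the name control males stands for all libraries labelled so. The control comparison was also made within each set of rows.

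The libraries of plate rows I and J stood apart from those of rows K to P in both populations. In ASC1, the chi-square per gene between libraries was 1.68 to 2.28 within rows K to P, 2.19 between rows I and J, and 4.62 to 8.32 between these sets. In ASC2 the libraries varied more, with 2.25 to 20.6 within rows K to P, 8.15 between rows I and J and 5.21 to 19.8 between the sets. Every value was above that of sampling noise, and no library was counted as a copy of another. These values cannot tell whether libraries came from the same mouse or the same RNA, since separate preparation also adds spread. Where a call was lost or gained without rows I and J, or a called log2 difference moved by over 1.5 times in fold, the value without them stands beside the gene.

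Dpp4 is the sort marker and was read as a check of the gate. It was at 1.28 CPM at the lowest, 31.1 at the median and 47.3 at the highest in ASC1, and at 49.2, 111 and 215 CPM in ASC2. The 8 ASC2 libraries thus lay above the 8 ASC1 libraries, with a narrow gap, and the log2 difference was 2.15 (SE 0.38, adjusted p = 6.65e-05). In control males the log2 difference of Dpp4 was 5.02 (4.24 within rows A to D and 6.43 within rows E to H), larger than in castrated males by 2.87 (adjusted p = 0.00194). Pi16, a secreted peptidase inhibitor of DPP4+ fibroblast progenitors, was not used in the sort and separated the populations far more. It was at 5.90, 19.4 and 39.9 CPM (lowest, median and highest) in ASC1 and at 494, 1493 and 2836 CPM in ASC2. The difference was 88.1-fold (log2 6.46, SE 0.49, adjusted p = 2.46e-15), and in control males the log2 difference was 6.76.

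Cd34, the stem cell sialomucin used to gate both populations, was at 24, 42.5 and 185 CPM in castrated ASC1 and at 335, 401 and 1055 CPM in castrated ASC2. No library overlapped, and Cd34 was 6.54-fold higher in ASC2 (log2 2.71, adjusted p = 3.83e-08). Its ASC1 values came from 160 and 185 CPM in rows I and J and 24 to 74.3 CPM in the other 6 libraries, and the log2 difference without those rows was 3.57. In bulk libraries, fewer cells that express a gene and less RNA of it per cell cannot be told apart.

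**Figure D1:**
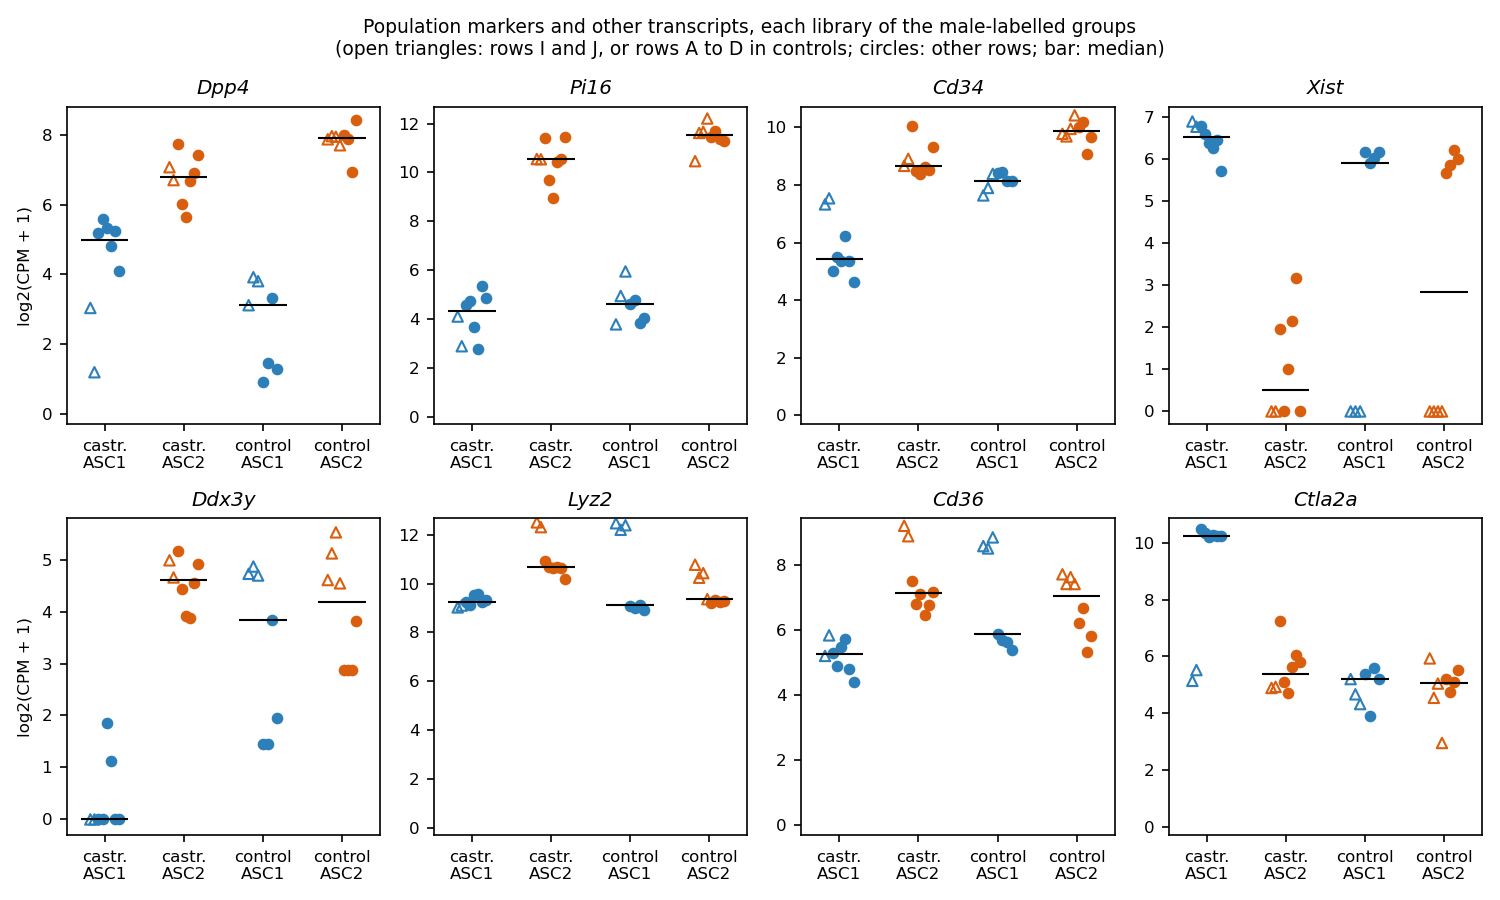
Levels of selected genes in each library labelled castrated male or male control, on a log2(CPM + 1) scale, with ASC1 in blue and ASC2 in orange, bars at the medians and open triangles for rows I and J (castrated) or A to D (control). Pi16 separated the populations in castrated and control libraries alike, and Xist lay at 51.9 to 118 CPM in castrated ASC1 and at most at 7.99 CPM in castrated ASC2.

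After castration, 557 genes were higher in ASC2 (4.47% of the 12464 tested) and 576 were lower (4.62%). Of these, 362 and 421 differed at least 2-fold, and the median log2 difference of all genes was 0.01. The 8 ASC2 values lay above the 8 ASC1 values for 123 genes (0.987%), of which 118 passed the test, and below them for 81 genes (0.650%), of which 79 passed. With rows I and J left out, 720 genes were higher and 846 lower, and 943 of the 1133 calls were shared with the comparison of all 16 libraries. The shares of 4.47% and 4.62% are the background for the counts of called list members below that use all 16 libraries.

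The largest differences toward ASC2, among genes reaching a mean of 20 CPM with no overlap of libraries, lay in genes of receptors, secreted factors and matrix. Mrgprg, an orphan receptor of the Mas-related family, had no read in any ASC1 library and 18.1, 54.3 and 69.6 CPM (lowest, median and highest) in ASC2, at least 76.0-fold higher against a floor of 3 counts over the ASC1 libraries. Krtdap, a secreted protein first described in keratinocytes, also had no ASC1 read and reached 3.01, 19.2 and 62.4 CPM in ASC2, at least 36.5-fold higher. Both were therefore seen in every ASC2 library and in no ASC1 library. Gpr1, a receptor for chemerin, had 1 read over the 8 ASC1 libraries and 139 over the ASC2 libraries, a ratio of 128 with a 95% counting interval of 22.6 to 5087. Efhd1, a mitochondrial calcium-binding protein, had 2 and 119 reads, a ratio of 54.7 (14.8 to 457). These intervals cover counting error only.

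Sema3c, a secreted semaphorin, was at 0, 1.24 and 16 CPM in ASC1 and at 39.2, 60.7 and 242 CPM in ASC2 (log2 5.21, SE 0.57, adjusted p = 1.27e-09). Tmem100, a membrane protein linked to BMP signalling in endothelium, was at 0, 0.56 and 4.72 CPM against 23.1, 47.9 and 118 CPM (log2 4.99, adjusted p = 2.87e-10). Ackr2, a decoy receptor that clears inflammatory chemokines, reached at most 4.30 CPM in ASC1 and lay between 21.1 and 72.5 CPM in ASC2 (log2 4.69, adjusted p = 1.51e-08). All 3 genes were also higher in ASC2 of control males, with log2 differences of 3.70, 2.84 and 3.63. With 1 ASC1 library left out, Tmem100 reached 5.61 (row N) and Ackr2 5.34 (row L) after castration. Adamtsl4, which binds microfibrils, and Fndc1, a fibronectin-domain protein, followed with log2 differences of 4.02 and 3.93 (adjusted p = 4.53e-07 and 5.73e-06). The Y-linked genes Eif2s3y (log2 5.40) and Ddx3y (log2 4.95) completed the 12 largest, each from 3 reads over the ASC1 libraries. Their ratios of reads were 55.5 (95% counting interval 18.7 to 272) and 39.6 (13.2 to 194), and their log2 differences were 6.28 without ASC1 of row N and 5.85 without ASC1 of row M.

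The largest differences toward ASC1 were led by Ngfr, the low-affinity neurotrophin receptor and a known surface antigen of mesenchymal stromal cells. The study reports Ngfr as a transcript of female ASC in perigonadal fat, with its protein also on DPP4+ cells there. Since the castrated ASC1 libraries carried Xist, population and sex-chromosome transcripts cannot be told apart for Ngfr. Ngfr was at 57.4, 360 and 567 CPM (lowest, median and highest) in ASC1 and at 0, 5.59 and 14.4 CPM in ASC2, 48.3-fold higher in ASC1 (log2 -5.59, SE 0.96, adjusted p = 4.22e-05). The ASC1 libraries of rows I and J gave 57.4 and 57.5 CPM, and those of rows K to P gave 315 to 567 CPM. Cyp7b1, an oxysterol and steroid hydroxylase, was at 6.38, 91.9 and 108 CPM in ASC1 against 0, 1.89 and 6.37 CPM in ASC2 (log2 -4.67, adjusted p = 5.68e-04). Rows I and J held the lowest ASC1 values of Cyp7b1, 8.97 and 6.38 CPM, and rows K to P gave 70.2 to 108 CPM, with a log2 difference of -5.42 without rows I and J.

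Cilp, a matrix protein of cartilage and fibrotic tissue, was at 34.1 to 147 CPM in ASC1 and 0 to 19.2 CPM in ASC2 (log2 -3.78, adjusted p = 1.52e-04). Lipg, endothelial lipase, was at 25.1 to 70.8 CPM against 0 to 11.2 CPM (log2 -3.43, adjusted p = 6.35e-05). Ggt5, a gamma-glutamyltransferase that makes leukotriene D4, was at 140, 379 and 393 CPM in ASC1 and 4.35, 42.1 and 73.5 CPM in ASC2 (log2 -3.09, adjusted p = 1.83e-06). The chemokine gene Ccl8 was at 236 to 481 CPM in ASC1 and 8.71 to 101 CPM in ASC2 (log2 -2.67, adjusted p = 2.82e-06). Fam110c, Arl4c and Fibin had log2 differences of -4.19, -2.37 and -2.20 (adjusted p = 2.58e-05, 5.72e-05 and 3.12e-04), and Fam110c one of -5.04 without ASC2 of row I and -5.77 without rows I and J. Ptpn5, a tyrosine phosphatase (log2 -2.29, adjusted p = 0.0372), and the keratin gene Krt8 (log2 -2.83, adjusted p = 0.0450) were near the threshold, and Ptpn5 missed it without rows I and J (adjusted p = 0.0907). Of 16 comparisons that each left out 1 library, Krt8 was not called in 12 and Ptpn5 in 9. Without rows I and J the log2 difference of Krt8 was -4.10. Xist (log2 -5.52, and -4.92 without rows I and J) completed the 12.

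**Figure D2:**
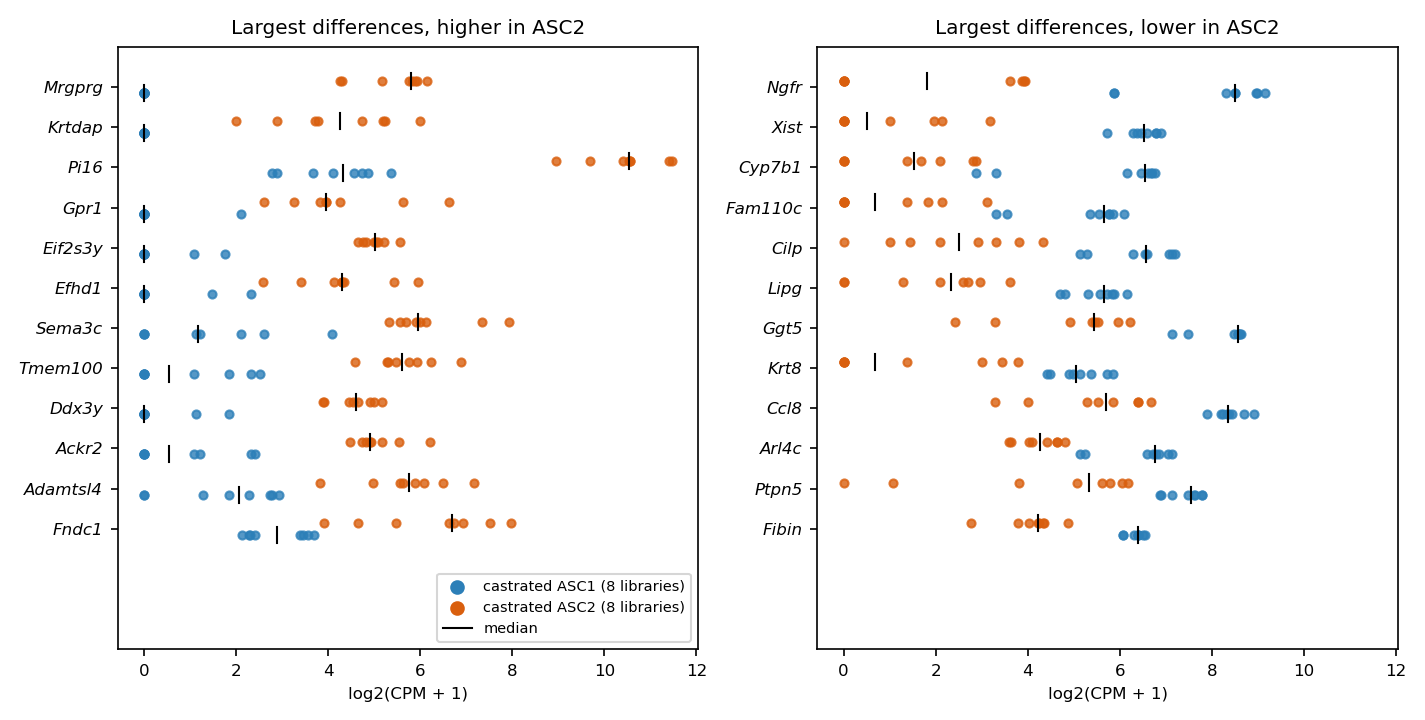
Levels of the 12 genes with the largest differences in each direction, as log2(CPM + 1) in each castrated ASC1 (blue) and ASC2 (orange) library, with bars at the medians. The libraries of the populations do not overlap for any of the 24 genes, and Mrgprg and Krtdap sit at 0 in all 8 ASC1 libraries.

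Of 32 progenitor genes described for DPP4+ cells, 22 were higher in ASC2 and 0 lower, against 4.47% and 4.62% of all genes, with a median log2 difference of 2.09. Wnt2, a Wnt ligand, was at 5.65, 8.06 and 24 CPM in ASC1 and at 52.2, 66.3 and 155 CPM in ASC2 (log2 3.11, SE 0.36, adjusted p = 8.09e-09). Ackr3, a scavenger receptor for CXCL12, was at 21.5, 50.9 and 88.5 CPM against 121, 277 and 596 CPM (log2 2.68, adjusted p = 7.73e-09). For 12 of the 32 genes all ASC2 libraries lay above all ASC1 libraries, against 0.987% of all genes. In control males 25 of the 32 were higher in ASC2 and 21 were called in both, and without rows I and J 21 were higher after castration. The list was put together from descriptions of these populations with results of these data known, so its direction is not independent evidence.

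The list of ASC1 preadipocyte genes was less one-sided. Of 32 tested, 11 were lower in ASC2 and 3 higher, with a median log2 difference of -0.54, and without rows I and J 13 were lower and 4 higher. The lower ones included Ggt5, Gdf10, a BMP-family ligand that was at 7.66, 14.7 and 28.0 CPM in ASC1 and 1.27, 1.95 and 6.03 CPM in ASC2 (log2 -2.41, adjusted p = 3.64e-05), and Sparcl1, a matricellular protein (log2 -1.99, adjusted p = 0.00642, and log2 -2.60 without rows I and J). The 3 higher in ASC2 were genes of adipogenesis and lipid handling. Cd36, the fatty acid transporter, was at 19.97, 37.2 and 56.2 CPM in ASC1 and 87.2, 139 and 589 CPM in ASC2 (log2 2.56, adjusted p = 1.18e-04), with 589 and 472 CPM in rows I and J and 87.2 to 181 CPM in the other ASC2 libraries. Without rows I and J the log2 difference of Cd36 was 1.81 (adjusted p = 0.0106). Macrophages also express Cd36, and summed macrophage and leukocyte markers were 6713 to 7447 CPM in ASC2 of rows I and J and 1510 to 2822 CPM in the other ASC2 libraries. In control males the log2 difference of Cd36 was -1.11 within rows A to D, where those markers were high in ASC1, and 0.41 within rows E to H, neither called (adjusted p = 0.149 and 0.854), and the part of these cells in the Cd36 result was not tested. Plin2, a lipid droplet coat protein, was at 364, 431 and 512 CPM against 808, 960 and 2002 CPM with no overlap (log2 1.33, adjusted p = 2.01e-05). Pparg, the master regulator of adipogenesis, was at 7.91 to 25.1 CPM against 9.87 to 79.8 CPM and overlapped (log2 1.59, adjusted p = 0.0115), and it was not called with limma voom (log2 1.28, adjusted p = 0.121). In control males 14 of the same 32 genes were lower in ASC2 and 2 higher, and 5 were lower in both.

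Of 27 adipogenic and lipid-handling genes tested, 5 were higher in ASC2 (Cd36, Plin2, Plin4, Pparg and Ebf2) and 2 lower (Lpl and Cebpb). Lpl, the lipase that releases fatty acids for uptake, had a log2 difference of -1.59, and Cebpb, an early adipogenic transcription factor, one of -2.05. The list median was 0.63, and -0.03 without rows I and J, where the log2 difference of Plin4 was 3.53 in place of 2.19. Among 14 stemness and surface antigen genes, Cd34 and Nt5e (CD73, log2 2.39) were higher in ASC2, and Icam1 (log2 -1.30, adjusted p = 0.00229) and Itgb1 (log2 -0.58, adjusted p = 0.00630) were lower. Icam1, an adhesion molecule used to sort committed preadipocytes, was at 35.8, 131 and 172 CPM in ASC1 and 34.8, 47.7 and 68.8 CPM in ASC2. In control males its log2 difference was -0.05.

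**Figure D3:**
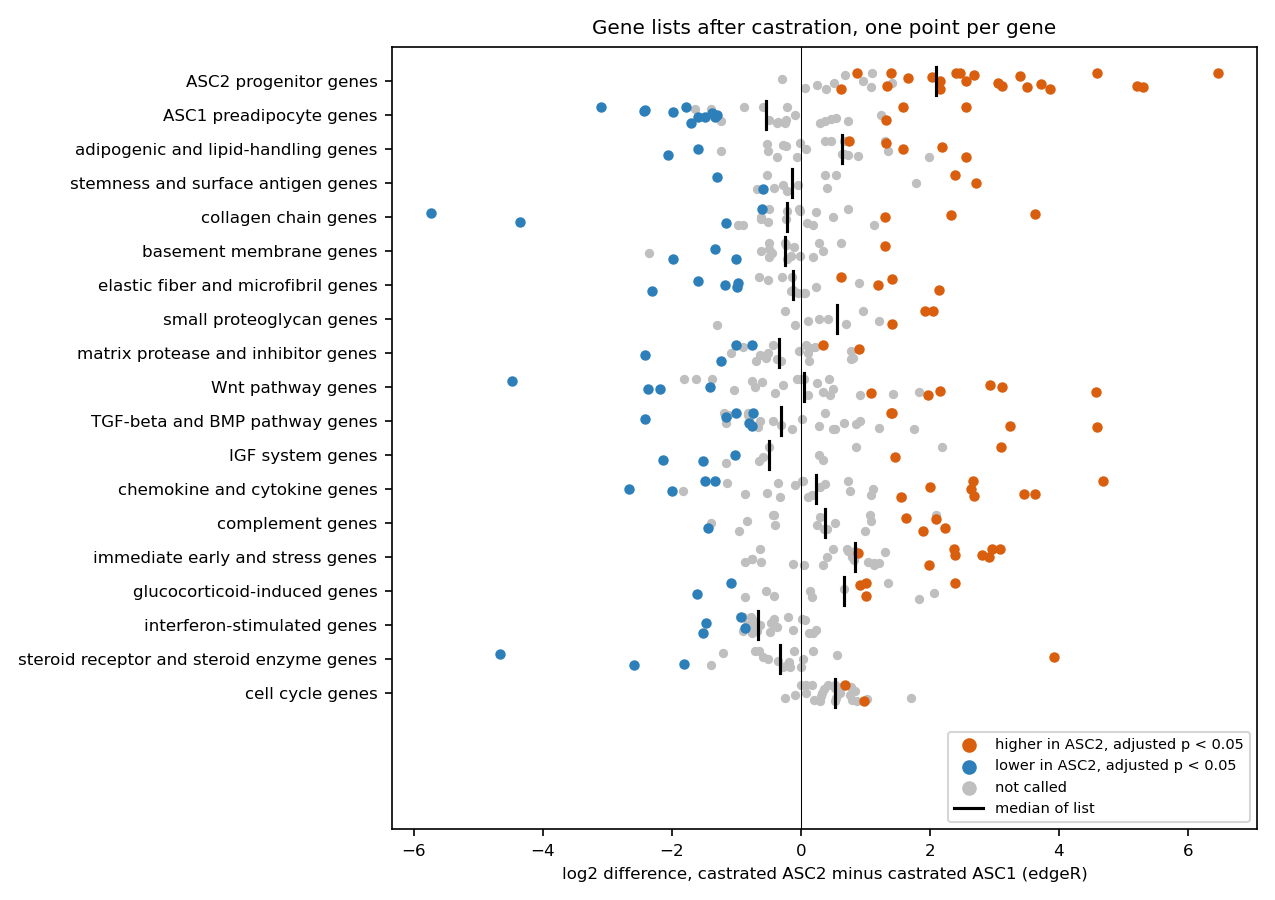
Log2 differences (castrated ASC2 minus ASC1) of the members of 19 gene lists, 1 point for each gene tested, with genes past an adjusted p of 0.05 in orange (higher in ASC2) or blue (lower) and a black bar at each list's median. The ASC2 progenitor list has its median at 2.09, immediate early genes called by the test lie to the right of 0 only, and interferon-stimulated genes called by the test to the left only.

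Matrix genes differed in both directions. Of 23 collagen chain genes, Col14a1, Col6a6 and Col18a1 were higher in ASC2 and Col8a2, Col4a3, Col5a2 and Col1a2 lower. Col14a1, a fibril-associated collagen, was at 8.94, 13.1 and 35.9 CPM in ASC1 and at 65.3, 128 and 385 CPM in ASC2 (log2 3.63, SE 0.45, adjusted p = 4.15e-08). Col8a2, a network-forming short-chain collagen, had no read in ASC2 and 51 reads over the ASC1 libraries, at least 18.5-fold lower in ASC2. Col5a2, which nucleates collagen fibrils, was at 1201, 1973 and 2316 CPM against 171, 855 and 1270.4 CPM (log2 -1.15, adjusted p = 0.00229), with the ASC2 value of 171 CPM in row K. Of 20 basement membrane genes, 1 was higher (Col18a1, log2 1.30, and 2.40 without rows I and J) and 3 were lower (Sparcl1, Smoc2 and Agrn). The share higher was 5%, near the 4.47% of all genes, and the share lower was 15% against 4.62%. Agrn, the proteoglycan agrin, was at 42.5 to 58.7 CPM in ASC1 and 11.6 to 46.3 CPM in ASC2 (log2 -1.01, adjusted p = 0.0214), and missed the threshold without rows I and J (adjusted p = 0.0612), without ASC2 of row K and without ASC2 of row M. Smoc2 (log2 -1.33, adjusted p = 0.0322) was not called in 7 of 16 comparisons that left out 1 library, and had a log2 difference of -2.18 without rows I and J.

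Of 20 elastic fiber and microfibril genes, 4 were higher and 5 lower in ASC2. Efemp1 (fibulin 3) was at 106, 130.3 and 455 CPM in ASC1 and at 698, 837 and 1045 CPM in ASC2 with no overlap (log2 2.14, adjusted p = 1.73e-08, and log2 2.75 without rows I and J), and Ltbp1, which stores latent TGF-beta on microfibrils, had a log2 difference of 1.41 (adjusted p = 1.88e-04). The cross-linking enzyme genes Lox and Loxl2 were lower. Lox, lysyl oxidase, was at 508, 959 and 1161 CPM in ASC1 and 98.7, 304 and 435 CPM in ASC2 (log2 -1.59, adjusted p = 8.16e-04), and Loxl2 had a log2 difference of -0.97 (adjusted p = 8.09e-04). Of 12 small proteoglycan genes, 3 were higher and 0 lower, namely Aspn (log2 2.05), Prelp (log2 1.93) and Omd (log2 1.42, adjusted p = 0.0271, and 0.0521 without rows I and J). The collagen-binding proteoglycan gene Dcn was at 1471 to 2298 CPM in ASC1 and 1435 to 4852 CPM in ASC2 and was not called (log2 0.42, adjusted p = 0.244).

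Of 24 matrix protease and inhibitor genes, 2 were higher and 4 lower. Mmp11 (stromelysin 3) was at 37.7, 184 and 233 CPM in ASC1 and 6.38, 16 and 68.8 CPM in ASC2 (log2 -2.42, adjusted p = 0.00273, and log2 -3.65 without rows I and J). Mmp3 (log2 -1.01, adjusted p = 4.73e-04) and Mmp14 were also lower. Timp3, a matrix-bound protease inhibitor (log2 0.90, adjusted p = 0.0136), and Serpinf1 were higher. When rows I and J were left out, 9 of the 24 were lower.

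Genes of developmental signalling differed in both directions. Of 31 Wnt pathway genes, 6 were higher in ASC2, the ligands Wnt2, Wnt10b and Wnt5a, the secreted inhibitors Sfrp2 and Sfrp4, and Dact2, an intracellular modulator. Sfrp4 was at 3.99, 20.6 and 25.8 CPM in ASC1 and at 76.6, 132 and 222 CPM in ASC2 (log2 2.93, SE 0.34, adjusted p = 9.58e-09). Wnt10b, a ligand that restrains adipogenesis, had 1 read over the ASC1 libraries and 47 over the ASC2 libraries, a ratio of 43.2 (95% counting interval 7.39 to 1744). The 4 lower were the receptor Fzd2, the inhibitors Frzb and Dkk3, and Axin2, a target of beta-catenin. Fzd2 was at 10.8, 54.2 and 68.0 CPM against 3.20, 9.98 and 17.8 CPM (log2 -2.19, adjusted p = 1.13e-04). All 6 higher genes were called in the same direction in control males and none of the 4 lower ones was. When rows I and J were left out, 6 were higher and 7 lower.

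Of 31 TGF-beta and BMP pathway genes, 4 were higher in ASC2 and 6 lower. The ligand gene Bmp7 had 1 read over the ASC1 libraries and 46 over the ASC2 libraries, a ratio of 42.3 (95% counting interval 7.23 to 1707), and Bmp3 and Ltbp1 were also higher. Id2, a BMP target that blocks basic helix-loop-helix factors, was at 16.6, 27.3 and 46.0 CPM against 29.1, 65.6 and 179.9 CPM (log2 1.39, adjusted p = 0.00102). The lower ones were the ligands Gdf10 and Inhbb, the receptors Bmpr1a, Tgfbr2 and Tgfbr3, and the protease gene Bmp1, and 6 were higher and 9 lower once rows I and J were left out. Of 13 genes of the IGF system, Igfbp5 and Igfbp6 were higher, and Igfbp3, Igfbp7 and Stc2 lower. These encode proteins that bind IGFs or regulate their release. Igfbp5 was at 24.3, 37.2 and 47.3 CPM in ASC1 and at 130, 209 and 699 CPM in ASC2 (log2 3.11, adjusted p = 3.83e-08), and Igfbp3 was at 21.5, 48.7 and 69.3 CPM against 2.90, 11.2 and 20.5 CPM (log2 -2.14, adjusted p = 0.00192). The 8 and 8 libraries did not overlap for either gene.

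Of 30 chemokine and cytokine genes, 8 were higher in ASC2 and 4 lower. The higher ones included Il1r2, a decoy receptor for interleukin 1, which was at 0, 6.87 and 16.2 CPM in ASC1 and at 42.2, 84.5 and 136 CPM in ASC2 (log2 3.63, SE 0.40, adjusted p = 1.27e-09), besides Ackr2 and Ackr3. Decoy and scavenger receptors were thus 3 of the 8, a grouping made after their values were seen. Ccl8, Cxcl14, Cxcl16 and Il4ra were lower. Of 20 complement genes, C3, Cfp, C5ar1 and C3ar1 were higher and C2 lower. That is 20% higher against 4.47% of all genes, and 5% lower, near the 4.62% of all genes. C3, the central component, was at 24.3, 159 and 252 CPM in ASC1 and 94.2, 495 and 2218 CPM in ASC2 (log2 2.23, adjusted p = 0.00192), and C2 was lower by a log2 difference of -1.43 (adjusted p = 0.00244). Cfp (properdin), C5ar1 and C3ar1 are typical of myeloid cells, whose markers were also higher in castrated ASC2. When rows I and J were left out, 2 complement genes were higher and 3 lower, Cfp missed the threshold (log2 1.07, adjusted p = 0.0694), and the log2 difference of C5ar1 was 1.48 in place of 2.10.

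Immediate early genes are switched on within minutes of a stimulus, and their transcripts can also be induced by tissue digestion and sorting. Of 28 tested, 8 were higher in ASC2, 0 were lower and 20 were not called, against 4.47% higher and 4.62% lower of all genes, with a median log2 difference of 0.83, and without rows I and J 12 were higher. Fos, a subunit of the AP-1 factor, was at 19.97, 31.0 and 80.2 CPM in ASC1 and at 157, 303 and 627 CPM in ASC2 (log2 2.92, SE 0.36, adjusted p = 2.43e-08). Nr4a1, an orphan nuclear receptor, was at 2.55, 8.92 and 17.2 CPM against 18.6, 31.6 and 200.2 CPM (log2 2.81, adjusted p = 7.71e-05), and Zfp36, which destabilizes cytokine mRNAs, was at 14.0 to 31.9 CPM against 51.0 to 201 CPM (log2 1.99, adjusted p = 5.46e-05). None of these 3 overlapped. Egr1 had a log2 difference of 2.96 (adjusted p = 1.97e-05) and Dusp1, a phosphatase that switches off MAP kinases, one of 2.39 (adjusted p = 7.51e-04), and Fosb, Atf3 and Klf6 were the others. All 8 were also called higher in ASC2 of control males, where 11 of the list were higher.

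Among the immediate early genes called higher, Fos, Nr4a1, Zfp36 and Dusp1 have both a difference given above and an entry in the RefSeq table. The 250 bases before their starts are shown as RefSeq gives them for GRCm38.p6, an older build than that of the deposited counts. They lie at chr12:85473640-85473889 (plus strand), chr15:101266596-101266845 (plus strand), chr7:28379229-28379478 (minus strand) and chr17:26508473-26508722 (minus strand). Each is written from 5′ to 3′ on the strand of its gene, and capitals mark TGACG or its reverse complement CGTCA, the core of the cAMP response element, and the CArG box, to which serum response factor binds.
Fos: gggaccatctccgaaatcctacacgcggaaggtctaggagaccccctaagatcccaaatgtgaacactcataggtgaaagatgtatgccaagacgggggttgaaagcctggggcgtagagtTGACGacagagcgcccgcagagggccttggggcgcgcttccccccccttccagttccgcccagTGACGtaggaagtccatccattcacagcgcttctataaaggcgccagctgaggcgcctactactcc
Nr4a1: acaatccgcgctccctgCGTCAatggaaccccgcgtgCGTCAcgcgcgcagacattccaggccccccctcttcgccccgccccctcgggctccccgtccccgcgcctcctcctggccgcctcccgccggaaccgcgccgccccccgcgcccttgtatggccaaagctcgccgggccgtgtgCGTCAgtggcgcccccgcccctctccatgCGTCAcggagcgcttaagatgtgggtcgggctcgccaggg
Zfp36: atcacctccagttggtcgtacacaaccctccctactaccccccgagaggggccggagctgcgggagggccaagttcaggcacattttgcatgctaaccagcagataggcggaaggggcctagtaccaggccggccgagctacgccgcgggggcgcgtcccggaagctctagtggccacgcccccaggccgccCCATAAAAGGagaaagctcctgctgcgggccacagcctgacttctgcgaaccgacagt
Dusp1: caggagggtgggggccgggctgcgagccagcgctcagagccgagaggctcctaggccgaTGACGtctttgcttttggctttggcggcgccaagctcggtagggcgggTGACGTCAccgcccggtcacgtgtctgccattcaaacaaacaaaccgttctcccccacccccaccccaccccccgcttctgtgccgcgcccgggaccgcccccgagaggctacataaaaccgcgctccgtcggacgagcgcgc
Of the 7 called genes with an entry in the RefSeq table, 5 held TGACG on either strand in this window, as did 12 of 25 entries for the whole list (48%) and 17.8% of 32851 promoters of the same length. Within these 250 bases the CArG box was found in Zfp36 alone of the 7, against 1.47% of all promoters, and Klf6 held neither motif. Bases further upstream were not searched, and Egr1 had no entry. A match is a description of the letters and was not tested as a site.

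Of 26 interferon-stimulated genes tested, 4 were lower in ASC2, 0 were higher and 22 were not called, against 4.62% lower and 4.47% higher of all genes, with a median log2 difference of -0.66. Bst2 (tetherin), which holds budding viruses at the membrane, was at 939, 1205 and 1350.1 CPM in ASC1 and 173, 322 and 777 CPM in ASC2 with no overlap (log2 -1.47, SE 0.30, adjusted p = 5.70e-04). H2-K1, a classical MHC class I chain, was at 330.2 to 628 CPM against 201 to 412 CPM (log2 -0.93, adjusted p = 0.0118). Ifi44 and Oasl2 were near the threshold (adjusted p = 0.0402 and 0.0483) and missed it without rows I and J (adjusted p = 0.153 and 0.0871), and they were not called in 12 and 13 of the 16 comparisons that left out 1 library. The count of lower genes was 8 with limma voom and 10 with the plate row as a block. In control males 3 members were higher in ASC2 and 0 lower.

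Of 20 genes on a list of steroid receptors and steroid enzymes, which also holds the growth hormone receptor gene Ghr, 1 was higher in ASC2, 3 were lower and 16 were not called. The 5% higher was near the 4.47% of all genes, and 15% were lower against 4.62%. Akr1c18, which inactivates progesterone, was at 25.8, 42.5 and 153 CPM in ASC1 and at 292, 521 and 4346 CPM in ASC2 (log2 3.92, SE 0.54, adjusted p = 4.87e-07). Row K held the value of 4346 CPM, the other ASC2 libraries reached at most 600.0 CPM, and without that library the log2 difference was 2.91 (adjusted p = 1.11e-05), while it was 4.90 without rows I and J. Akr1c18 had a log2 difference of 0.40 in control males and 2.95 in control females. Pgr, the progesterone receptor, was at 7.66, 47.0 and 63.9 CPM against 0, 4.16 and 19.2 CPM (log2 -2.59, adjusted p = 0.00526), and Cyp7b1 was lower as given above. Ghr had a log2 difference of -1.81 (adjusted p = 9.41e-04, and log2 -2.57 without rows I and J). Leaving out rows I and J gave 1 higher and 5 lower. Of 15 glucocorticoid-induced genes, 4 were higher (Dusp1, Tsc22d3, Sgk1 and Glul) and the metallothionein genes Mt1 and Mt2 were lower. Mt2 was at 312, 460 and 569 CPM in ASC1 and 30.1, 147 and 233 CPM in ASC2 (log2 -1.61, adjusted p = 3.45e-04).

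Of 28 cell cycle genes, 2 were higher in ASC2 and 0 lower, Mcm3 (log2 0.98, adjusted p = 0.0160) and Pcna (log2 0.69, adjusted p = 0.0315), which act in DNA replication. That is 7.14% of the list, near the 4.47% of all genes, and Pcna was not called in 8 of the 16 comparisons that left out 1 library. Without rows I and J 6 of the 28 were called higher. Ccnd1, which drives cells out of G1, depended on those rows. Its ASC1 values were 253 and 174 CPM in rows I and J and 0 to 19.97 CPM in rows K to P, its ASC2 values were 64.7 to 352 CPM, and its log2 difference went from 1.71 (adjusted p = 0.104) to 4.74 (adjusted p = 6.94e-05) without them.

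Genes that the study found to differ between the sexes were read with the Xist result in view, since population and sex-chromosome transcripts cannot be told apart. Of 13 female-enriched genes, 7 were lower in ASC2 and 0 higher, with a median log2 difference of -1.59. They were Xist, Pgr, Ptpn5, Thsd4, P4ha3, Heph and Il4ra. P4ha3, a collagen prolyl hydroxylase subunit, was at 53.6, 114 and 143 CPM in ASC1 and 2.90, 21.6 and 62.2 CPM in ASC2 (log2 -2.08, adjusted p = 0.00273). In control males 2 of the 13 were higher and 0 lower. Of 25 male-enriched genes, 6 were higher (Eif2s3y, Ddx3y, Agt, Nt5e, Arl4a and Prelp) and 1 lower (Egfr). Without the castrated libraries of rows I and J, 6 were lower in the first list, and 6 were higher and 4 lower in the second. The study drew both lists from other cells, but Xist and the Y-linked genes are themselves on them, so their directions are not independent of the sex-chromosome transcripts. Kdm5c, Kdm6a, Ddx3x and Eif2s3x, X-linked genes expressed from both X chromosomes in females, had log2 differences of -0.48, -1.16, -0.31 and -0.15, and none was called (adjusted p = 0.210 to 0.727).

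Agt, which encodes angiotensinogen, the precursor of angiotensin peptides, was at 0, 1.61 and 16 CPM in castrated ASC1 and at 4.79, 19.9 and 52.2 CPM in castrated ASC2, with overlap (log2 3.01, SE 0.57, adjusted p = 2.19e-04). In control males the order was reversed, with 43.4, 53.2 and 110.4 CPM in ASC1 and 3.53, 8.76 and 19.8 CPM in ASC2 (log2 -2.59, adjusted p = 2.66e-05). The difference between these differences was 5.60 on the log2 scale (SE 0.72, adjusted p = 1.43e-06), and the control difference was -2.38 within rows A to D and -3.34 within rows E to H. The castrated populations differed in Xist and Y-linked reads, while the populations within each set of control rows were alike in Xist. Castration and these transcripts thus cannot be told apart for Agt.

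Markers of other cell types were summed in each library. Fibroblast markers were high in both populations, with no difference past the threshold (8599 to 16260 CPM in ASC2, 10779 to 14017 CPM in ASC1, adjusted p = 0.945). Col3a1, a fibrillar collagen, was at 2440 to 3683 CPM in ASC1 and 1834 to 5423 CPM in ASC2 (log2 0.09). Pdgfra, a receptor that defines adipose fibroblasts, and Col1a1 had log2 differences of -0.52 and -0.63 and were not called, but without rows I and J they were called lower (log2 -0.73 and -0.87, adjusted p = 0.0171 and 0.0391). Over 25 alternatives Pdgfra was called lower in 8, among them DESeq2, RLE normalization and limma voom, and Col1a1 in 2. Macrophage and leukocyte markers summed to 1510 to 7447 CPM in ASC2 (median 2143) and 761 to 1115 CPM in ASC1 (median 882), and 10 of 15 were called higher in ASC2. The exact permutation test gave the smallest p it can give with 8 against 8 (p = 1.55e-04, adjusted p = 9.32e-04 over 12 measures). Lyz2, the lysozyme of macrophages, was at 519, 606 and 759 CPM against 1161, 1632 and 5804 CPM (log2 2.04, adjusted p = 3.87e-04), with 5804 and 5069 CPM in rows I and J and a log2 difference of 1.29 without them. Ptprc, which encodes CD45, the leukocyte antigen that the gate removes and a gene chosen after its values were seen, was at 0 to 5.90 CPM in ASC1 and 3.20 to 34.4 CPM in ASC2. Without rows I and J the summed difference was 1162 CPM in place of 2448 CPM (adjusted p = 0.00649), and 4 of 15 markers were called.

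Endothelial markers summed to 161 to 238 CPM in ASC2 and 102 to 136 CPM in ASC1 (adjusted p = 9.32e-04). Of the 11 tested, Tek alone was called (log2 1.00, adjusted p = 0.0359), it was not called without rows I and J (adjusted p = 0.164), and Pecam1, which encodes the CD31 of the gate, was at 9.99 to 26.0 CPM in ASC1 and 11.2 to 54.3 CPM in ASC2 (log2 0.79, adjusted p = 0.136). Mural markers were higher in ASC1, at 737 to 2706 CPM against 270 to 1447 CPM (adjusted p = 0.00979), and 3 of 10 were called lower in ASC2. These were the contractile genes Tagln (log2 -1.88), Acta2 (log2 -1.10) and Des (log2 -2.23), which myofibroblasts also express and of which Des was not called with limma voom (log2 -1.37, adjusted p = 0.306), while the pericyte markers Cspg4, Rgs5, Kcnj8 and Abcc9, named after their values were seen, were not called. Tagln was at 966 to 1220.2 CPM in ASC1 of rows K to P and at 280 and 174 CPM in rows I and J. Without those rows the log2 differences of Tagln and Des were -2.55 and -2.88. Mammary epithelial markers summed to 56.2 to 160 CPM in ASC1 and 28.8 to 87.1 CPM in ASC2 (adjusted p = 0.00808), with Krt7 and Krt8 lower and Krt19 higher in ASC2. The sum of mesothelial markers was 6.38 to 130 CPM in ASC1 and 25.6 to 68.2 CPM in ASC2 and was not called (adjusted p = 0.0936). In ASC1 it was 6.38 and 19.7 CPM in rows I and J and 71.9 to 130 CPM in rows K to P. Without rows I and J the summed difference was -60.8 CPM (adjusted p = 0.00649). Of 4 mesothelial markers tested over all 16 libraries, 2 were called lower in ASC2 and 1 higher. Sums of mature adipocyte, Schwann cell and skeletal muscle markers did not pass the test (adjusted p = 0.855, 0.910 and 0.855). The part of these cell types in the gene differences above was not tested.

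**Figure D4:**
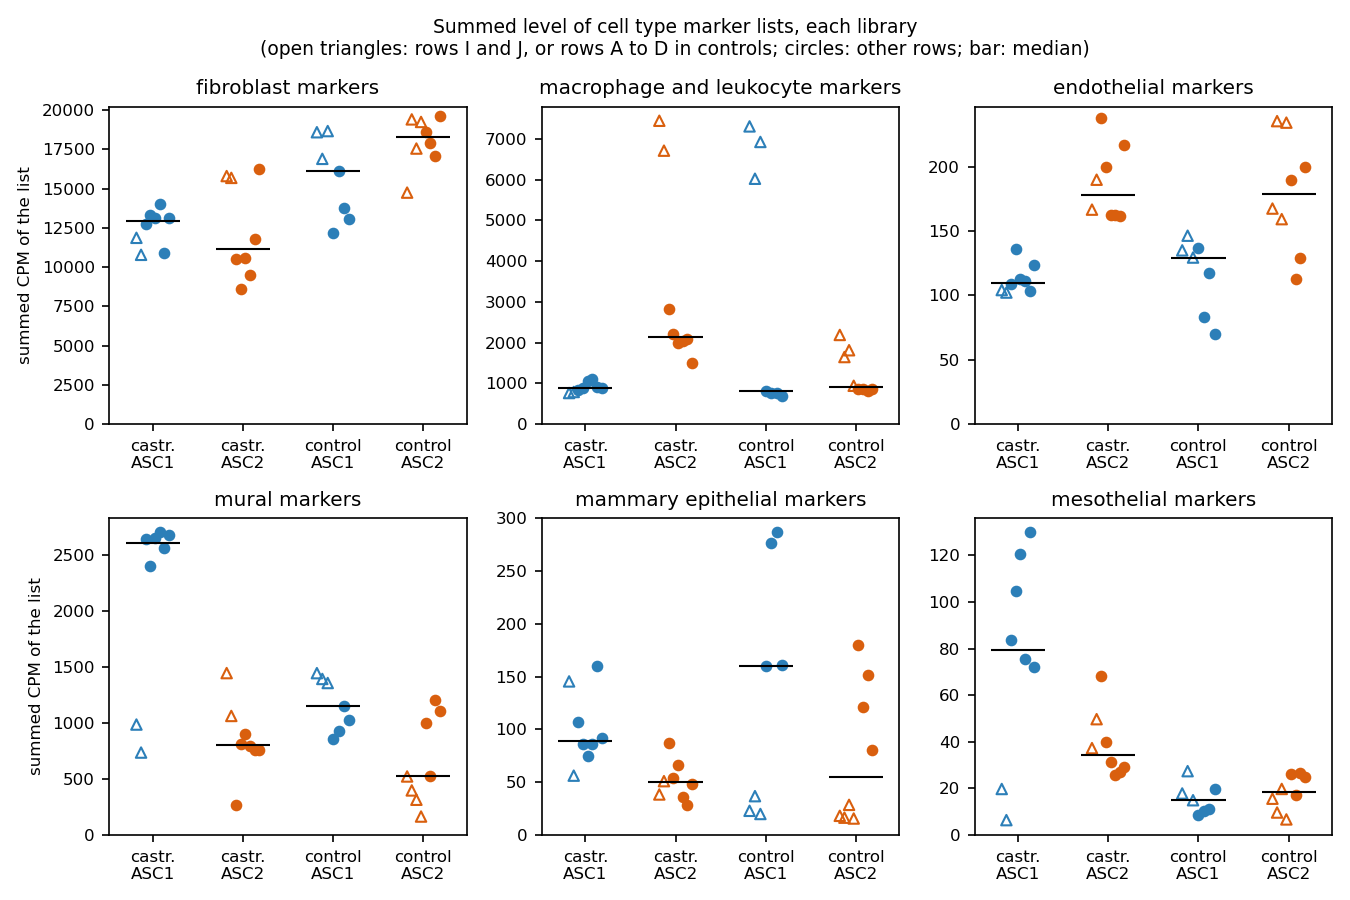
Summed CPM of marker lists in each library labelled castrated male or male control, with ASC1 in blue, ASC2 in orange, bars at the medians and open triangles for rows I and J (castrated) or A to D (control). Macrophage and leukocyte markers reach 7447 CPM in castrated ASC2 of rows I and J and 7308 CPM in control ASC1 of rows A to D, and all other castrated libraries lie between 761 and 2822 CPM.

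The differences of control mice were set beside those after castration. They contrast other libraries, but all libraries were in the same fit, with shared scaling, gene filter and estimate of the spread. In control males 858 genes were higher in ASC2 (6.88%) and 661 lower (5.30%), and in control females 441 (3.54%) and 321 (2.58%). Of the 557 genes higher in ASC2 after castration, 195 (35.0%, and 22.7% of those higher in control males) were also called higher in control males, 33 were called lower and 407 (73.1%) had the same sign. Of the 576 lower, 130 (22.6%, and 19.7% of those lower in control males) were also called lower, 5 were called higher and 450 (78.1%) had the same sign. In all 3 comparisons 135 genes were higher in ASC2, among them Pi16, Sema3c and Fos, and 45 were lower. Sex-chromosome reads of the control females are not given here. The study saw low counts of Ddx3y and Eif2s3y in them, read these as weak male contamination and still judged the samples usable. Rows A to D and rows E to H of the control males gave different counts, 625 higher and 606 lower in the former and 136 and 38 in the latter. Of the 136 higher in rows E to H, 97 were also higher after castration (71.3%, and 17.4% of the 557), against 4.47% of all genes tested. In these rows 2 of the genes higher after castration were lower. Of the 625 in rows A to D, 130 were higher after castration (20.8%, and 23.3% of the 557), and 51 of the genes higher after castration were lower there. Of the 38 lower in rows E to H, 18 were also lower after castration (47.4%, and 3.12% of the 576). Of the 606 lower in rows A to D, 90 were lower after castration (14.9%, and 15.6% of the 576). Among all genes tested, 4.62% were lower after castration. Of the 576, 0 were called higher in rows E to H and 5 in rows A to D.

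**Figure D5:**
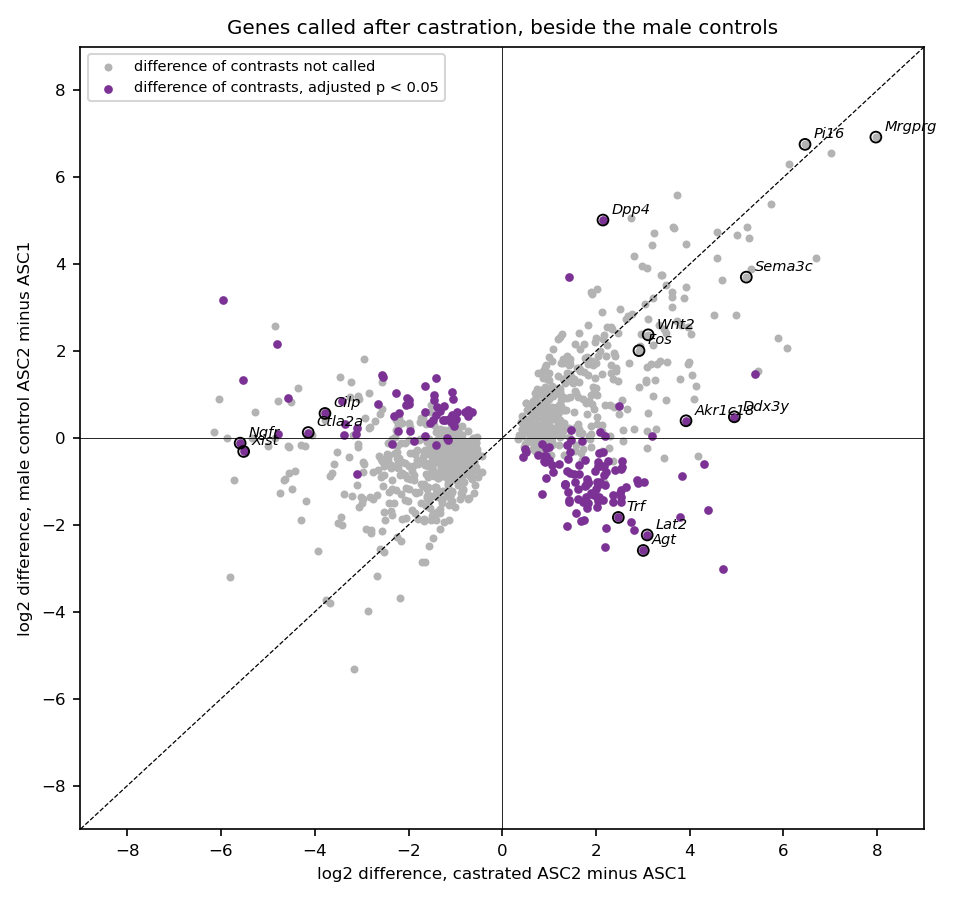
Log2 difference between ASC2 and ASC1 after castration (horizontal) and in control males (vertical) for the genes called after castration, with the line of equal differences dashed. Pi16 lies near the line at 6.46 and 6.76, and Ngfr lies at -5.59 and -0.12.

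With its sign kept, the ASC2 minus ASC1 difference was higher after castration than in control males for 191 genes (1.53%). It was lower, that is shifted toward ASC1, for 110 (0.883%). This comparison uses the libraries of both. Only the castrated populations differed from each other in Xist within their sets of rows, so castration and sex-chromosome transcripts cannot be told apart here. When rows I and J were left out, the counts of 191 and 110 became 135 and 149. With control rows A to D alone they were 296 and 196, and with rows E to H alone 5 and 2. Of the 191, 109 were called higher in ASC2 after castration, and 95 were called lower in ASC2 of control males. Among markers of macrophages and leukocytes, 11 of 15 had a positive difference and 0 a negative one, and their sum in control males was 6023 to 7308 CPM in ASC1 of rows A to D and 693 to 813.5 CPM in ASC1 of rows E to H. The 6 largest positive differences were those of Agt, Ddx3y (4.46), the leukocyte genes Lat2 (5.32), Myo1f (4.92) and Myo1g (4.29), and Trf, which encodes the iron carrier transferrin (4.31). Without rows I and J, Lat2 and Myo1f were not called after castration (adjusted p = 0.171 and 0.115), nor were Trf and Myo1g (adjusted p = 0.842 and 0.484). Their differences from control males then were 3.72 for Lat2 and 3.71 for Myo1f, both called, and 2.10 for Trf, 2.94 for Myo1g and 4.02 for Ddx3y, none of which was called (adjusted p = 0.152, 0.0648 and 0.0702). Trf and Ddx3y also missed the threshold with limma voom (adjusted p = 0.380 and 0.109).

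The 6 largest negative differences were those of Ngfr, Xist (-5.21, and -4.61 without rows I and J), Gucy1a1, Cilp, Lipg and Ctla2a. Ctla2a, a cysteine protease inhibitor, was at 1183 to 1443 CPM in castrated ASC1 of rows K to P, at 34.1 and 44.7 CPM in rows I and J, and at 25.1 to 151 CPM in castrated ASC2 (log2 -4.14, SE 0.73, adjusted p = 6.79e-05). In control males Ctla2a was at 13.9 to 46.6 CPM in ASC1 and 6.69 to 59.7 CPM in ASC2, and the difference of the differences was -4.27 (adjusted p = 0.0117). Ngfr was at 0, 32.3 and 48.6 CPM in control ASC1 and 8.78, 20.7 and 38.2 CPM in control ASC2, against at least 57.4 CPM in every castrated ASC1 library (difference of the differences -5.48, adjusted p = 0.0111). Lipg (-4.27, adjusted p = 0.00101) and Cilp (-4.35, adjusted p = 0.00470) had control differences of 0.84 and 0.57. With control rows E to H alone, which leaves fewer libraries, the differences of Lipg, Cilp, Ngfr and Ctla2a were -3.87, -4.29, -4.89 and -4.15, and none passed the threshold (adjusted p = 0.0978, 0.135, 0.245 and 0.269). That of Ctla2a was -3.68 with limma voom and was not called (adjusted p = 0.137). Gucy1a1, a subunit of the nitric oxide receptor, was at 1.28, 23.2 and 79.9 CPM in castrated ASC1 and at most 2.01 CPM in castrated ASC2 (log2 -4.78, adjusted p = 4.78e-04), and its difference from control males was near the threshold (-4.86, adjusted p = 0.0468). That difference was not called in 26 of 42 alternatives, among them limma voom (-2.72, adjusted p = 0.315).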

How the data were processed

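RNA of sorted ASC was measured in 58 libraries of 8 groups, assigned by their titles. The authors aligned reads with STAR 2.7.10a for quality control on GRCm39, quantified them with Salmon 1.9.0 on Gencode transcripts, added reads with and without UMIs, removed libraries with few detected genes and deposited, for each gene, estimated counts that were neither normalized nor pooled (15.0% of the values above 0 were not whole). Estimated counts were rounded and tested in R 4.3.3 with edgeR 4.0.16 (TMM, estimateDisp, glmQLFit and glmQLFTest), with 1 coefficient for each of the 8 groups and all 58 libraries sharing 1 estimate of the spread, on the 12464 of 56953 genes that reached 5 reads in more than 3 libraries. Of these, 93 had no symbol. Genes with near-identical copies may share reads, and strand was not used. Log2 plots add 1 CPM. Total counts of 235104 to 921014 per castrated library limit what can be seen of genes with few reads.

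Named genes were Dpp4, Pi16, up to 12 in each direction with the largest difference among called genes with a mean of at least 20 CPM in the higher population and no overlap of libraries, up to 6 in each direction with the largest difference from control males, and from each list up to 4 with the smallest p, with members that check labels or cell types. Other members named in short counts were named after their values were seen. The members and lists were chosen with earlier results of these data known. Library measures were compared by exact permutation tests (scipy 1.17.1). Same-row libraries of the castrated populations did not deviate together, and the plate row was not used as a block.

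Alternatives were RLE or library size normalization, no filter, filterByExpr, DESeq2 1.42.0, limma 3.58.1 (voom), only the compared groups, the row as a block, and each library left out. Leaving out rows I and J and dividing the control males by rows were chosen after seeing the data. The test was tried on simulated data.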

Additional observations from a re-analysis of the deposited data

Results flagged for a closer look

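Among 88 groups of 8 libraries checked, 2 held a library far from the others, where chance gives about 1 in 20. Gpr1 was at 3.33 CPM in castrated ASC1 of row O, the highest of 8, which is 1 read, while the other 7 had none. The summed skeletal muscle markers were 53.7 CPM in castrated ASC2 of row K, the highest of 8, with a group median of 9.72 CPM.

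The ASC2 minus ASC1 difference was tested between castrated and control males for the genes named in the report. With its sign kept, it was higher after castration for Agt (log2 5.60), Lat2 (5.32), Myo1f (4.92), Ddx3y (4.46), Trf (4.31) and Myo1g (4.29). It was lower, that is shifted toward ASC1, for Ngfr (-5.48), Xist (-5.21), Gucy1a1 (-4.86), Cilp (-4.35), Lipg (-4.27) and Ctla2a (-4.27). With control rows E to H alone, 10 of these 12 did not pass the threshold, with log2 values from 1.69 (Trf) to 4.05 (Ddx3y) for the positive and from -4.89 (Ngfr) to -3.48 (Gucy1a1) for the negative ones. With rows A to D alone, Xist (-5.52) and Ctla2a (-4.44) did not. Castration and sex-chromosome transcripts cannot be told apart for any of the 12.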

How the results depend on the processing

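The count of genes called after castration was 1133 and lay between 996 (replicate block) and 1566 (without rows I and J) over the alternatives, 877 to 1304 when 1 library was left out. In control males it was 1519, with 1091 to 1647 when 1 library was left out and 174 with rows E to H alone. The count for the difference from control males was 301 and less stable, with 454 without the filter, 193 with limma voom, 198 with the replicate block, 492 with control rows A to D alone, 7 with rows E to H alone, and 201 to 371 when 1 library was left out. Of the 193, 92 were positive, a share of 47.7% against 63.5%, and without rows I and J the share was 47.5%. The castrated share of higher calls was 49.2%, and 41.7% with voom. The cause of these shifts was not tested. The replicate block used a row letter that the populations share. Same-row correlations were -0.33 to 0.10 in castrated libraries, 1 of 8 pairs being the best match, and 0.04 to 0.35 in male controls, 5 of 7 being over 0.1 and 3 of 7 the best match, so the letter was not taken as a pairing.

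Of 136 genes named after castration, 103 kept their call in every alternative and 0 were reversed. A change of sign was counted only where the main comparison or the alternative called the gene. Others were not counted, as for Cfd, with log2 differences of -1.45 to 2.49 over the alternatives. Limma voom lost 10 (Pparg, Heph, Krt8, Krt19, Smoc2, Trf, Myo1g, Tek, Des and Msln) and gained 2 (Ccnd1 and Pdgfra). The replicate block lost 7 (Trf, Smoc2, Pcna, Tek, Des, Acta2 and Msln) and gained 3 (Ccnd1, Pdgfra and Krt18), and leaving out rows I and J lost 13 and gained 4. The mesothelial sum differed by -38.0 CPM, by -60.8 CPM without rows I and J (adjusted p = 0.00649) and by -48.0 to -30.4 CPM when 1 library was left out, passing the threshold without row I or J of ASC1. With 1 of the 16 castrated libraries left out, the call was lost in 13 comparisons for Oasl2, 12 for Ifi44 and Krt8, 9 for Ptpn5, 8 for Pcna and Tek, 7 for Smoc2 and Krt19, 5 for Omd, 2 for Agrn and 1 each for Myo1g (ASC2 of row I) and Acta2 (ASC2 of row K). The log2 difference of Trf was 1.85 without ASC2 of row J, that of Plin4 2.87 without ASC1 of row I, and those of Lrrn4 and Msln -4.78 and -3.54 without ASC2 of row J. At 235104 to 921014 counts per castrated library, the counting error limits the precision for genes with few reads.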
